A study of Mus musculus with 12 samples.

Results

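The genes described here encode 10 extracellular proteases and protease inhibitors of the mouse: the matrix metalloproteinases (MMPs) Mmp2, Mmp3, Mmp12, Mmp14, Mmp15 and Mmp19, the ADAMTS proteases Adamts1 and Adamts4, and the tissue inhibitors of metalloproteinases (TIMPs) Timp2 and Timp3. They were taken by symbol from a list drawn up with earlier results of these data in view, and each symbol matched a single row among the 56953 genes of both count tables. Poly(A) RNA of whole spinal cord was measured by bulk RNA sequencing in 12 libraries, 3 animals in each of 4 groups. The conditional knockout groups (cKO) came from a cross of mice with loxP-flanked Ddx20 alleles (Ddx20flox/flox) to Plp-CreER transgenic mice, and their cords were taken 4 or 4.5 weeks after tamoxifen. Control mice at 4 and at 4.5 weeks were the comparison groups. Their exact genotype, and the strain and age of the animals, are not given in the sources used here, which also do not say whether controls received tamoxifen. The Plp promoter drives the inducible Cre in oligodendrocyte-lineage cells and also in Schwann cells. By this design, cells of the cord outside those lineages would keep their Ddx20 alleles, which was not tested here.

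MMPs are zinc-dependent proteases that are made as inactive precursors and opened by other proteases outside the cell. Most are secreted, while the membrane-type members such as Mmp14 and Mmp15 stay anchored at the cell surface and are activated by furin-like convertases. ADAMTS proteases are secreted relatives that cleave the large chondroitin sulphate proteoglycans of the brain and cord matrix, such as aggrecan, versican and brevican. TIMPs bind the active site of these enzymes and block it. In the central nervous system the family is known from the remodelling of matrix around injured or demyelinated tissue, from the passage of leukocytes through basement membranes and from myelin breakdown.

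Library totals lay between 33104560 and 47677267 estimated counts. Summed transcripts of 7 mature oligodendrocyte markers (Mbp, Mog, Mag and others) reached 10555 to 14249 CPM (counts scaled to the library total) in cKO cords at 4 weeks, against 21197 to 23471 CPM in controls, and 7159 to 7765 CPM in cKO cords at 4.5 weeks, against 18687 to 18980 CPM in controls. In bulk tissue, fewer cells of a type and less RNA per cell cannot be told apart. Ddx20 itself was not called at 4 weeks (log2 fold change -0.03, adjusted p = 0.84, edgeR) and was called higher in cKO cords at 4.5 weeks (0.33, adjusted p = 0.013). Its values were 10.2, 11.1 and 9.9 CPM in cKO, against 11, 9.78 and 11.1 CPM in controls at 4 weeks, and 12.4, 11.1 and 13.3 CPM in cKO, against 9.16, 10.6 and 9.71 CPM in controls at 4.5 weeks, and a gene's total count cannot show the loss of 1 exon. By Xist and Y-linked counts, the 3 controls at 4 weeks were male, cKO libraries 1 and 2 at 4 weeks were female, cKO library 3 was male, and all 6 libraries at 4.5 weeks were female. Sex, time and count table therefore cannot be told apart between the control groups, and a sex term at 4 weeks rests on cKO library 3 alone. Among the controls at 4.5 weeks, library 1 held 311 summed CPM of 7 Schwann cell and sensory ganglion markers and library 2 held 115 summed CPM of 4 skeletal muscle markers, the highest of all libraries. Values without both libraries are given for some of the results.

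Genes of this list were called in both directions at each time, and the share over all tested genes is given beside them. All 10 passed the filter on low counts, but Mmp3 and Mmp12 only through the cKO libraries in which they were high, so they had to differ to be tested and are left out of the counts that follow. Of the other 8, at an adjusted p below 0.05 (edgeR's quasi-likelihood test, Benjamini-Hochberg over 19278 genes), 4 were higher in cKO cords at 4 weeks (Mmp2, Mmp15, Mmp19 and Adamts1), 1 was lower (Adamts4) and 3 were not called (Mmp14, Timp2 and Timp3). Calls were common at this time: 37.2% of all tested genes were called, 20.1% higher and 17.2% lower. At 4.5 weeks 5 were higher (Mmp2, Mmp14, Mmp19, Timp2 and Adamts1), 2 were lower (Mmp15 and Adamts4) and Timp3 was not called, beside 65.9% of all tested genes called, 33.3% higher and 32.6% lower. Their median log2 fold change was 0.24 at 4 weeks and 0.98 at 4.5 weeks, beside 0.01 and 0.02 over all tested genes, a description of genes whose earlier results were known. The cKO and control libraries did not overlap for 5 of the 8 genes at 4 weeks and for 7 at 4.5 weeks, where 47.2% and 72.3% of all tested genes did not overlap.

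**Figure D1:**
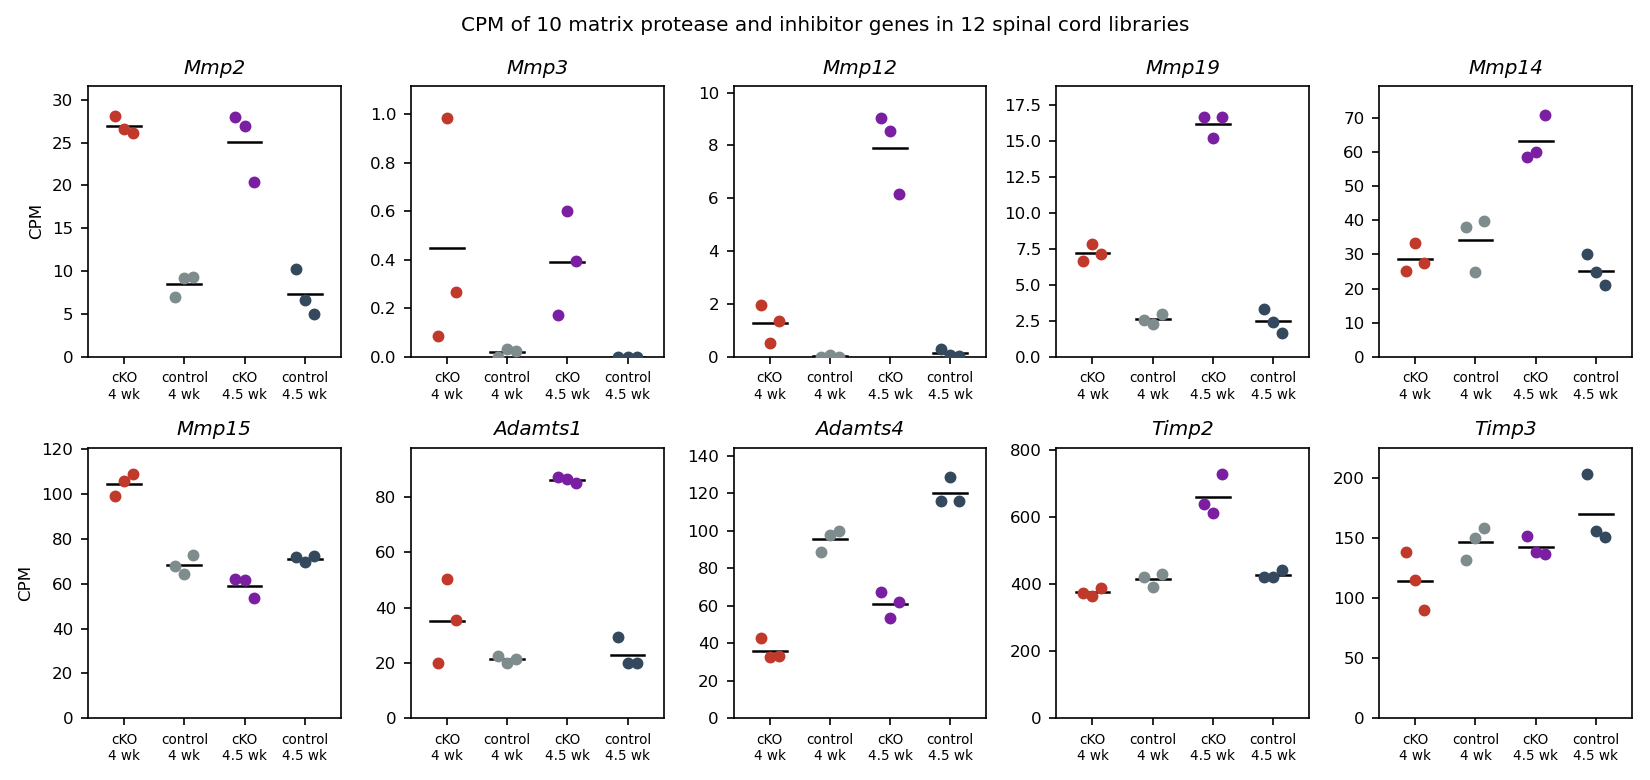
CPM of the 10 genes in each library (points) with the group mean (bar), cKO left of control at each time, on a separate axis per gene. Mmp12 lies between 6.15 and 9.04 CPM in the cKO cords at 4.5 weeks and at or below 0.301 CPM in every control, while Timp3 overlaps between cKO and control at both times.

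Mmp12 and Mmp3 were close to undetected in control cords and present in every cKO cord. Mmp12, macrophage elastase, had 68, 20 and 50 counts (1.95, 0.505 and 1.35 CPM) in cKO cords at 4 weeks, against 0, 2 and 0 counts in controls. At 4.5 weeks it had 364, 312 and 219 counts (9.04, 8.54 and 6.15 CPM) in cKO cords, against 12, 2 and 2 counts in controls. No control library reached the lowest cKO library of its time. The ratio of summed counts, each divided by the summed scaled library totals of its group, was 69.3 at 4 weeks (95% exact counting interval 18.8 to 578). At 4.5 weeks it was 61.2 (37.5 to 108). These intervals cover counting error only. The fitted log2 fold changes were 5.89 ± 1.6 and 5.88 ± 0.69 (SE) and no test is given, since the gene was tested only through its cKO libraries. With so few control counts, the fitted value was 8.61 without control library 2 at 4 weeks, which left no control count, and 7.26 without control library 1 at 4.5 weeks.

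Mmp3, stromelysin-1, cleaves many matrix proteins and activates other MMP precursors. It had 3, 39 and 10 counts in cKO cords at 4 weeks, against 0, 1 and 1 counts in controls, and 7, 22 and 14 counts in cKO cords at 4.5 weeks, against 0 in all 3 controls. The cKO libraries of each time therefore lay above their controls, but at very low counts and with a wide spread among themselves. The ratio of summed counts, scaled in the same way, was 26.1 at 4 weeks (95% exact counting interval 6.87 to 221). At 4.5 weeks Mmp3 was at least 15.7-fold higher in cKO cords, taking a floor of 3 counts over the control group. No test is given here either, and cKO library 2 held most of the counts at 4 weeks.

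Mmp3 and Mmp12 lie in the MMP gene cluster of chromosome 9, and their promoters are shown because both genes were near 0 in controls and had counts in every cKO cord. The sequences are the 250 bases before the RefSeq start (build GRCm38.p6, whereas the count tables used mm39), plus strand, at chr9:7445572-7445821 for Mmp3 and chr9:7347124-7347373 for the second of 2 Mmp12 starts. Capitals mark matches to TGANTCA, the core of an AP-1 site, and to TATAAA, the motif of the TATA box.
Mmp3: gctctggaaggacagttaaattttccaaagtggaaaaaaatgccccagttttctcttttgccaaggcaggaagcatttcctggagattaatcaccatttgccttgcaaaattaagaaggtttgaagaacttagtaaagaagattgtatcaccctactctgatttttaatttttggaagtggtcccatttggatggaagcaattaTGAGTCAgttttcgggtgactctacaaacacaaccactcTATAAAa
Mmp12, second start: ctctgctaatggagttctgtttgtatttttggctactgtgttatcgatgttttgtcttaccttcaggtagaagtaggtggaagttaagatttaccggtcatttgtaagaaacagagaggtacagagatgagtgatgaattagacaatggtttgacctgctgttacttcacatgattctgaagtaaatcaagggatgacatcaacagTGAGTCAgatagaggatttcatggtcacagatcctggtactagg
Both windows held the letters TGAGTCA, starting 46 bases before the Mmp3 start and 44 bases before the second Mmp12 start. The first Mmp12 start and the windows of Mmp14, Mmp15, Timp2, Timp3 and Adamts1 held no TGANTCA. Searched on both strands, TGANTCA occurred in 6.75% of the 32851 RefSeq promoters of the same length, TATAAA in 12.4%, and AGGAAG, the core of a PU.1 or other ETS site, in 29.5%. TATAAA was found in Mmp3, starting 7 bases before the RefSeq start, and in Adamts1, starting 32 bases before its start. AGGAAG was found in Mmp3, the first Mmp12 start, Mmp14 and Timp3. RefSeq promoters were matched for 7 of the 10 genes (8 starts), and the windows of Mmp15 and Timp2 held none of these letters. These matches describe the sequence and show no binding.

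Mmp2 and Mmp19, the other secreted MMPs, rose at both times from measurable control levels. Mmp2, gelatinase A, cleaves denatured collagen and the collagen of basement membranes. It reached 28.1, 26.6 and 26.1 CPM in cKO cords at 4 weeks, against 7.03, 9.2 and 9.29 CPM in controls, and 28, 26.9 and 20.4 CPM in cKO cords at 4.5 weeks, against 10.3, 6.61 and 4.99 CPM in controls. The groups were far apart at both times, and the cKO means were 26.9 ± 1.04 CPM at 4 weeks and 25.1 ± 4.12 CPM at 4.5 weeks (SD, n = 3 each). Its log2 fold change was 1.66 ± 0.21 at 4 weeks (SE, adjusted p = 8.1e-05) and 1.78 ± 0.21 at 4.5 weeks (adjusted p = 9.7e-06, edgeR). The change in effect between times was 0.12 on the log2 scale (95% interval -0.53 to 0.77, adjusted p = 0.79). Over the alternative fits this change ran from -0.10 to 0.66. Without control libraries 1 and 2 at 4.5 weeks the log2 fold change at that time was 2.32.

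Mmp19, a secreted MMP that cleaves basement membrane proteins, had 6.68, 7.82 and 7.16 CPM in cKO cords at 4 weeks, against 2.57, 2.31 and 2.97 CPM in controls. At 4.5 weeks it had 16.7, 15.2 and 16.7 CPM in cKO cords, against 3.36, 2.39 and 1.68 CPM in controls. Both cKO groups lay above every control, and the cKO cords at 4.5 weeks lay above those at 4 weeks. In the fit, the log2 fold change was 1.46 ± 0.2 (SE, adjusted p = 0.00012) at 4 weeks and 2.71 ± 0.2 (adjusted p = 1.1e-07) at 4.5 weeks, and the difference of 1.25 ± 0.28 between them passed the test (adjusted p = 0.0032, edgeR). Exons of Mmp19 overlap those of Tmem198b on the other strand, and the library kit does not mark strand, so reads of shared sequence cannot be told apart. Tmem198b averaged 15.9 CPM in cKO and 14.1 CPM in control cords at 4 weeks, and 23.3 CPM in cKO and 15.6 CPM in control cords at 4.5 weeks, with log2 fold changes of 0.18 (adjusted p = 0.29) and 0.58 (adjusted p = 0.00096).

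Summed microglial and phagocyte transcripts were also higher in cKO cords, more so at 4.5 weeks. The cKO effect on Mmp2 was not called different between the times (difference 0.12, adjusted p = 0.79, edgeR). Summed CPM of 8 microglia markers ran from 738 to 1007 in cKO cords at 4 weeks, against 387 to 394 in controls, and from 3543 to 3912 in cKO cords at 4.5 weeks, against 388 to 389 in controls. Summed CPM of 8 activated phagocyte markers (Spp1, Gpnmb, Itgax, Cst7, Clec7a, Lpl, Trem2 and Apoe) ran from 3809 to 4346 in cKO cords at 4 weeks, against 2257 to 2318 in controls, and from 29240 to 35254 in cKO cords at 4.5 weeks, against 1824 to 2011 in controls. Apoe alone gave 2948 to 3850 CPM of that sum in cKO cords at 4 weeks, and the median log2 fold change of the 8 markers was 2.44 at 4 weeks and 6.69 at 4.5 weeks. Among the microglia markers at 4 weeks, 6 rose, Sall1 fell (-0.43, adjusted p = 0.0005) and P2ry12 was not called (-0.05, adjusted p = 0.61, edgeR). Markers of blood monocytes and neutrophils were low throughout, with 8 markers summing to 2.9 to 10.7 CPM in cKO and 4.94 to 7.14 CPM in control cords at 4 weeks, and to 9.06 to 11.6 CPM in cKO and 4.59 to 9.26 CPM in control cords at 4.5 weeks. Of the 7 of them tested, 1 was higher at each time. Fibroblasts of the meninges are a known source of Mmp2, and their markers overlapped between groups: 7 markers summed to 194 to 540 CPM in cKO and 302 to 532 CPM in control cords at 4 weeks, and to 360, 388 and 282 CPM in cKO and 556, 194 and 135 CPM in control cords at 4.5 weeks. The overlap at 4.5 weeks came from control library 1, and without it every cKO library lay above the controls. The 7 fibroblast markers did not move together. At 4 weeks 0 of them were called. At 4.5 weeks 1 was higher (Pdgfra, which is also a marker of oligodendrocyte precursors), 1 was lower (Igf2) and 5 were not called. At 4.5 weeks 6 endothelial markers summed to 299 to 376 CPM in cKO, against 214 to 237 in controls (4 higher, 2 not called). For 6 pericyte and smooth muscle markers the sums were 293 to 356 and 179 to 221 CPM (5 higher, Acta2 lower). For 6 border macrophage markers they were 31.5 to 37 and 5.28 to 26.6 CPM (2 higher, 4 not called). At 4 weeks all of these sums overlapped between cKO and control cords. The part of these cell types in the MMP values was not tested.

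The membrane-type MMPs differed from each other in time. Mmp14 (MT1-MMP), a collagenase that also activates the Mmp2 precursor, had 25.1, 33.5 and 27.4 CPM in cKO cords at 4 weeks, against 38, 25 and 39.8 CPM in controls, groups that overlapped. At 4.5 weeks it had 58.5, 60.1 and 71 CPM in cKO cords, against 30, 24.8 and 21 CPM in controls, with a wide gap between the groups. The fit gave a log2 fold change of -0.26 ± 0.18 at 4 weeks (SE, 95% interval -0.64 to 0.12, adjusted p = 0.28), and 1.32 ± 0.17 at 4.5 weeks (adjusted p = 2.1e-05, edgeR). The effect was 1.58 ± 0.25 larger at 4.5 weeks (adjusted p = 0.00025). Without control library 2 at 4 weeks, the only low one of that group, Mmp14 was called lower at 4 weeks (-0.44, adjusted p = 0.043).

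Mmp15 (MT2-MMP) was the only gene of the 10 called in opposite directions at the different times. It had 98.9, 106 and 109 CPM in cKO cords at 4 weeks, against 68, 64.4 and 73 CPM in controls, and 62, 61.7 and 53.6 CPM in cKO cords at 4.5 weeks, against 71.8, 69.5 and 72.4 CPM in controls. Groups did not overlap at either time, and control libraries of both times lay within 64.4 to 73 CPM. The log2 fold change was 0.61 ± 0.068 at 4 weeks (SE, adjusted p = 2.5e-05) and -0.27 ± 0.068 at 4.5 weeks (adjusted p = 0.0037, edgeR). The effect was lower at 4.5 weeks than at 4 weeks (difference -0.88 ± 0.096 on the log2 scale, adjusted p = 1.6e-05). When tested for exceeding 1.5-fold, neither change was called (adjusted p = 0.8 at 4 weeks and 1 at 4.5 weeks, edgeR).

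The ADAMTS proteases moved in opposite directions. Adamts4, an aggrecanase known to be made by mature oligodendrocytes in the mouse, fell at both times. It had 42.8, 32.5 and 33 CPM in cKO cords at 4 weeks, against 88.9, 97.9 and 99.9 CPM in controls, and 67.5, 53.6 and 62 CPM in cKO cords at 4.5 weeks, against 116, 129 and 116 CPM in controls. Every cKO library lay below every control of its time, and every cKO library at 4.5 weeks lay above all 3 cKO libraries at 4 weeks. The controls at 4.5 weeks likewise lay above all 3 controls at 4 weeks, groups that also differ in sex and count table. Adamts4 had a log2 fold change of -1.40 ± 0.11 at 4 weeks (SE, adjusted p = 1.5e-06) and -0.98 ± 0.11 at 4.5 weeks (adjusted p = 3.9e-06, edgeR). The difference of 0.43 ± 0.15 between times had an adjusted p of 0.04, and was not called with 8 of the 12 libraries left out in turn (adjusted p 0.076 to 0.11). All 7 mature oligodendrocyte markers also fell at both times, with a median log2 fold change of -1.22 at 4 weeks and -1.91 at 4.5 weeks, larger at the later time where that of Adamts4 was smaller. The part of that cell type in the Adamts4 values was not tested.

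Adamts1, a protease of aggrecan and versican, had 20.1, 50.3 and 35.6 CPM in cKO cords at 4 weeks, against 22.5, 19.9 and 21.5 CPM in controls. At 4.5 weeks it had 87.3, 86.4 and 85 CPM in cKO cords, against 29.3, 20 and 19.9 CPM in controls. At 4 weeks cKO library 1 lay among the controls while libraries 2 and 3 lay above them, whereas at 4.5 weeks the cKO libraries were close to each other and far above the controls. For Adamts1 the log2 fold change was 0.73 ± 0.25 at 4 weeks (SE, adjusted p = 0.034) and 1.90 ± 0.24 at 4.5 weeks (adjusted p = 1.9e-05, edgeR). The call at 4 weeks was lost without cKO library 2 (0.39, adjusted p = 0.19) or 3 (0.73, adjusted p = 0.076), without any 1 control of that time (adjusted p = 0.068 to 0.094), with a sex term (adjusted p = 0.15), with limma-voom (adjusted p = 0.071) and with each time fitted alone (adjusted p = 0.074). The effect was 1.17 ± 0.35 larger at 4.5 weeks (adjusted p = 0.016, and 0.07 with a sex term).

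**Figure D2:**
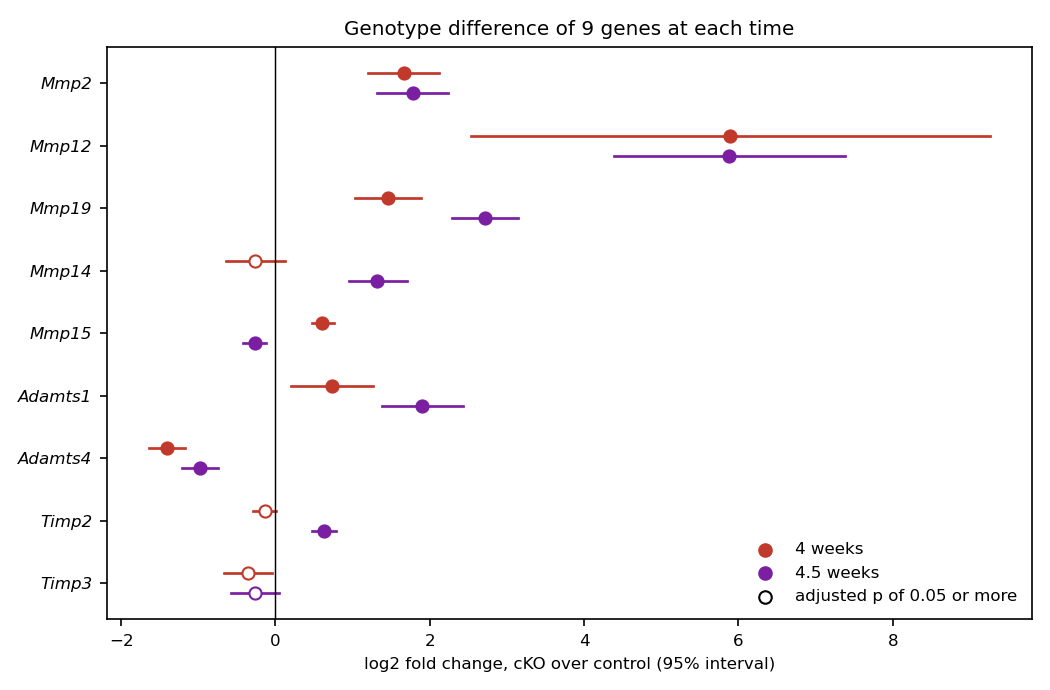
Log2 fold change of cKO over control at 4 and 4.5 weeks for 9 of the 10 genes (Mmp3 has no standard error and is left out), with bars for the 95% interval of the edgeR fit and open circles for an adjusted p of 0.05 or more (Mmp12 is shown for its values only). Mmp14 and Timp2 were not called at 4 weeks (-0.26 and -0.14) and lie at 1.32 and 0.63 at 4.5 weeks. Mmp15 lies on opposite sides of 0 at the different times.

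Of the inhibitors, Timp2 changed between the times and Timp3 was not called at either. Timp2, which inhibits MMPs broadly and takes part with Mmp14 in activating the Mmp2 precursor, had 375, 364 and 390 CPM in cKO cords at 4 weeks, against 421, 391 and 432 CPM in controls. At 4.5 weeks it had 641, 614 and 730 CPM in cKO cords, against 422, 423 and 442 CPM in controls. The groups nearly touched at 4 weeks, with cKO just below the controls, and were far apart at 4.5 weeks, with cKO above them. The log2 fold change was -0.14 ± 0.069 at 4 weeks (SE, 95% interval -0.29 to 0.01, adjusted p = 0.14) and 0.63 ± 0.069 at 4.5 weeks (adjusted p = 4.2e-06, edgeR). The effect was 0.77 ± 0.098 larger at the later time (adjusted p = 5.2e-05).

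Timp3, which binds to the matrix and inhibits ADAMTS proteases as well as MMPs, had 138, 115 and 90 CPM in cKO cords at 4 weeks, against 132, 150 and 158 CPM in controls. At 4.5 weeks it had 152, 138 and 137 CPM in cKO cords, against 203, 156 and 151 CPM in controls. The groups overlapped at both times. The log2 fold change was -0.36 ± 0.14 at 4 weeks (SE, 95% interval -0.67 to -0.05, adjusted p = 0.067) and -0.26 ± 0.14 at 4.5 weeks (95% interval -0.57 to 0.05, adjusted p = 0.13, edgeR). At 4 weeks Timp3 was called lower without cKO library 1 (-0.53, adjusted p = 0.0083), with a sex term (-0.71, adjusted p = 0.012), with DESeq2's Wald test (adjusted p = 0.028) and without a filter on low counts (adjusted p = 0.03).

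Levels were ranked among the genes as mean CPM per kilobase of merged exon length. Timp2 was highest in all 4 groups, at 96.6 ± 3.38 in cKO and 106 ± 5.4 in control cords at 4 weeks, and 170 ± 15.6 in cKO and 110 ± 2.92 in control cords at 4.5 weeks (SD, n = 3 each). In both control groups the order below it was Adamts4, Timp3 and Mmp15, with Adamts4 and Timp3 overlapping (19.9 and 18 CPM per kilobase at 4 weeks, 25 and 20.9 at 4.5 weeks), and Mmp14 and Adamts1, further down, also overlapped. In cKO cords at 4 weeks Mmp15 (19.4) and Timp3 (14.1) followed Timp2, and Mmp2 (7.98), Adamts4 (7.51) and Adamts1 (6.66) overlapped their neighbours in the order. In cKO cords at 4.5 weeks Timp3 (17.4) and Adamts1 (16.3) came next, then Adamts4 (12.7), Mmp15 (10.9) and Mmp14 (10.6), which overlapped in turn. Mmp19, Mmp12 and Mmp3 were the lowest 3 in every group, with Mmp12 (1.09) above Mmp3 (0.216) in cKO cords at 4.5 weeks and overlapping it in cKO cords at 4 weeks (0.175 for Mmp12 and 0.248 for Mmp3).

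**Figure D3:**
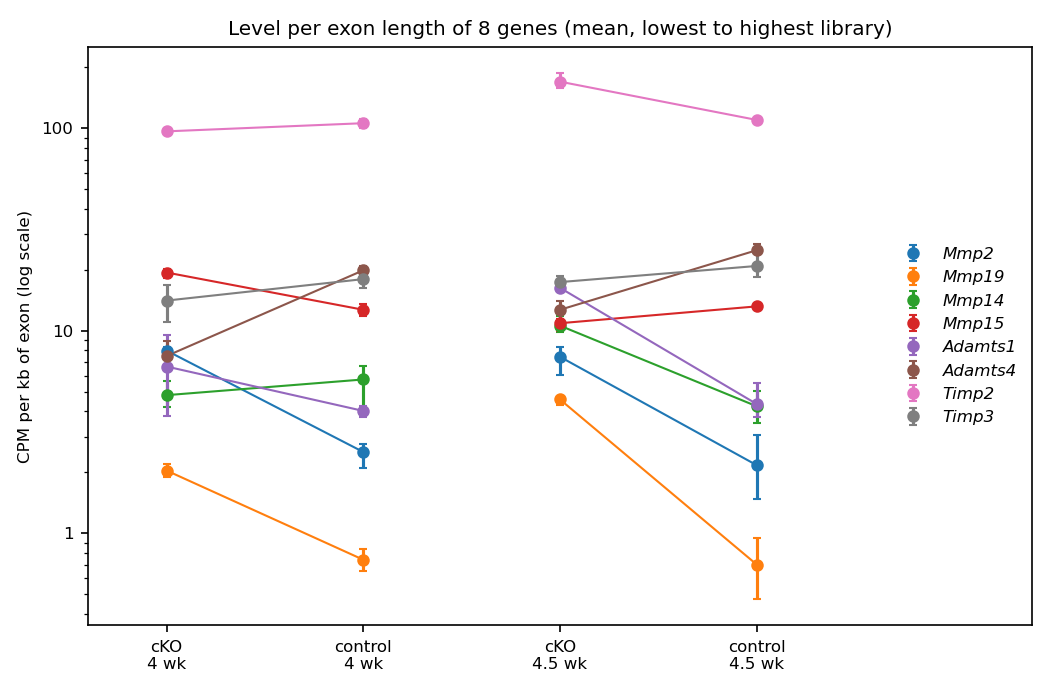
Mean CPM per kilobase of exon on a log axis for 8 of the genes in cKO and control cords at both times, with bars from the lowest to the highest library and lines joining cKO to control of the same time (Mmp3 and Mmp12 are left out because of libraries at or near 0). Timp2 lies at 96.6 to 170 in every group, and Adamts4 stands next below Timp2 in both control groups but below Mmp15, Timp3 and Mmp2 in cKO cords at 4 weeks.

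Between the times, 6 of the 8 genes other than Mmp3 and Mmp12 had a changed cKO effect: 5 higher (Mmp14, Mmp19, Timp2, Adamts1 and Adamts4) and 1 lower (Mmp15), where 40.7% of all tested genes were called, 18.7% higher and 21.9% lower. For Mmp12 the difference was -0.01 with a 95% interval of -3.70 to 3.67, set by the few control counts, so its higher cKO level at 4.5 weeks cannot be read as a larger fold. Timp3 (0.10, 95% interval -0.34 to 0.54, adjusted p = 0.73) and Mmp2 were not called. Of the 10 genes, 0 differed between control cords at 4.5 weeks and control cords at 4 weeks in edgeR, where 16.7% of all tested genes were called, 9.53% higher and 7.21% lower. At an unadjusted p below 0.05 there were 2 (Mmp14 and Adamts4), DESeq2 called 2 and limma-voom called 1. Adamts4 was nearest the threshold (log2 fold change 0.33, adjusted p = 0.052), followed by Mmp14 (-0.44, adjusted p = 0.1).

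The profile over the 12 libraries was set against that of every tested gene by the root-mean-square (RMS) difference of mean-centred log2 CPM, for the 9 genes called at either time. Mmp2 was nearest to Col5a1, a fibrillar collagen chain (RMS difference 0.158, where the spread of Mmp2 itself was 0.915), then to Col22a1 and C1s1. Mmp19 was nearest to Pros1, Cmtm3 and Akna (0.172 to 0.218, own spread 1.15), and Mmp12 to Rgs1, Olfr111 and Cd48 (0.817 to 0.877, own spread 2.74). Mmp3 was nearest to Foxe1, Hmmr and Rrm2 (0.356 to 0.453, own spread 1.51), at counts too low for a close match. Mmp14 was nearest to Diaph3, Rgcc and Chrdl1 (0.182 to 0.205, own spread 0.553), and Mmp15 to Tacc2, Grpel1 and Gne (0.0794 to 0.0963, own spread 0.313). Adamts4 was nearest to Heph, Ptch1 and Slc12a2 (0.132 to 0.155, own spread 0.678), and Adamts1 to Rai14, Zfp36l1 and Zc3hav1 (0.177 to 0.198, own spread 0.861). Timp2 was nearest to Ppt1, a lysosomal enzyme, then to Ppp4r3b and Lin7c (0.0549 to 0.067, own spread 0.318). These are descriptions over libraries that share the group differences.

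The other genes of the pathway were described from lists. Of 17 further MMP genes 10 were tested, of which Mmp8 and Mmp27 passed the filter only through the cKO libraries at 4.5 weeks and are left out of the counts. Of the other 8, 0 were called by edgeR at 4 weeks (1 at an unadjusted p below 0.05, Mmp9, and 0 by DESeq2 or limma-voom). At 4.5 weeks 2 were higher (Mmp11 and Mmp16) and 3 lower (Mmp9, Mmp17 and Mmp24), with a median log2 fold change of -0.33, where 65.9% of all tested genes were called. Mmp9, gelatinase B, had 3.4, 2.68 and 3.14 CPM in cKO cords at 4.5 weeks, against 14.9, 14.9 and 14.4 CPM in controls (log2 fold change -2.26 ± 0.15, adjusted p = 4.7e-08, edgeR), opposite in direction to the other gelatinase, Mmp2. Mmp17, a membrane-type MMP, fell to 18 CPM in cKO cords, against 37.9 CPM in controls (-1.07 ± 0.099, adjusted p = 8e-07). The genes left out are named after their values were seen. Mmp8, neutrophil collagenase, had 93, 154 and 94 counts in cKO cords at 4.5 weeks, against 5, 11 and 9 counts in controls, and Mmp27 had 53, 53 and 50 counts in cKO cords at 4.5 weeks, against 0 in all controls, at least 56.9-fold higher with a floor of 3 counts over the group.

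Of the other TIMPs, Timp1, an inhibitor known to be induced in reactive astrocytes, rose at both times. It had 7.6, 29.1 and 25.8 CPM in cKO cords at 4 weeks, against 0.74, 1.42 and 1.3 CPM in controls, and 57.4, 64.8 and 74.8 CPM in cKO cords at 4.5 weeks, against 0.477, 0.545 and 0.246 CPM in controls. For Timp1 the log2 fold change was 4.19 ± 0.47 (SE, adjusted p = 2e-05) at 4 weeks and 7.29 ± 0.6 (adjusted p = 7e-08) at 4.5 weeks, and the difference of 3.10 passed the test (adjusted p = 0.0046, edgeR). Summed CPM of 6 astrocyte markers ran from 2793 to 4464 in cKO and from 4966 to 5511 in control cords at 4 weeks. At 4.5 weeks it ran from 4723 to 5188 in cKO and from 5758 to 6032 in control cords. Of the 6 markers, 1 was higher (Aldh1l1), 4 were lower and Gfap was not called at 4 weeks. At 4.5 weeks 2 were higher (Aldh1l1 and Gfap) and 4 were lower. The part of astrocytes in the Timp1 values was not tested. Timp4 was lower in cKO cords at 4 weeks (59.3, 28.9 and 36.8 CPM, against 75.3, 71.2 and 71.9 CPM in controls, adjusted p = 0.0047) and higher at 4.5 weeks (81.4, 90.7 and 94.3 CPM, against 56.9, 61.5 and 65.1 CPM in controls, adjusted p = 0.021). As with Adamts1, cKO library 1 at 4 weeks lay nearest to the controls for Timp1 and Timp4.

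Of 16 tested genes among 17 further ADAMTS proteases, 2 rose and 2 fell at 4 weeks, and 4 rose and 4 fell at 4.5 weeks, with medians of -0.04 and 0.10, where 37.2% and 65.9% of all tested genes were called. Adamts7, a protease of cartilage oligomeric matrix protein, rose at both times (2.50 ± 0.32, adjusted p = 7.7e-05, and 2.74 ± 0.33, adjusted p = 9.4e-06). Adamts5, the other main aggrecanase, rose at both times (0.70 ± 0.11, adjusted p = 0.00036, and 0.61 ± 0.11, adjusted p = 0.00028), whereas Adamts4 fell. At 4.5 weeks Adamts2, a procollagen peptidase, fell (-1.56 ± 0.14, adjusted p = 5.2e-07) and Adamts10 rose (1.38 ± 0.14, adjusted p = 1.5e-06, edgeR).

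The activators, other inhibitors and clearance receptors included urokinase and its receptor, which rose at both times. Of 19 genes tested, Serpinf2 passed the filter only through the cKO libraries and is left out. Of the other 18, 8 rose and 4 fell at 4 weeks, and 10 rose and 5 fell at 4.5 weeks, with medians of 0.14 and 0.61, where 37.2% and 65.9% of all tested genes were called. Plau, the urokinase that turns plasminogen into plasmin, averaged 22.4 CPM in cKO and 2.63 CPM in control cords at 4 weeks, and 75.9 CPM in cKO and 2.6 CPM in control cords at 4.5 weeks (3.09 ± 0.21, adjusted p = 5.4e-07, and 4.87 ± 0.21, adjusted p = 1.6e-09). Its receptor Plaur rose with 3.11 ± 0.3 (adjusted p = 8.6e-06) and 5.16 ± 0.3 (adjusted p = 1.6e-08). The testican genes Spock1, Spock2 and Spock3, proteoglycans known to bind proteases of the matrix, fell at both times, Spock3 most (-0.81 ± 0.099, adjusted p = 5.5e-05, and -2.10 ± 0.1, adjusted p = 3.2e-09). Summed CPM of 5 neuron markers ran from 4759 to 5105 in cKO and from 5237 to 5920 in control cords at 4 weeks. At 4.5 weeks the sums were 1812 to 1933 CPM in cKO cords, against 6226 to 6517 CPM in controls. Of the 5 markers, 1 was called lower at 4 weeks (Rbfox3) and all 5 were called lower at 4.5 weeks. The part of neurons in the testican values was not tested. A2m, a general protease trap, was lower at 4 weeks (-0.59, adjusted p = 0.018) and higher at 4.5 weeks (0.78, adjusted p = 0.0014, edgeR).

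Among 17 matrix substrates, all tested, 5 rose and 5 fell at 4 weeks, and 10 rose and 6 fell at 4.5 weeks, with medians of -0.17 and 0.40, where 37.2% and 65.9% of all tested genes were called. Vcan, versican, a substrate of Adamts1 and Adamts4, had 342, 300 and 290 CPM in cKO cords at 4.5 weeks, against 33.1, 36.4 and 38.1 CPM in controls (3.12 ± 0.12, adjusted p = 8e-10). At 4 weeks it had 40, 61.3 and 50.8 CPM in cKO cords, against 30.5, 29.6 and 30.1 CPM in controls (0.75 ± 0.12, adjusted p = 0.00046). Summed markers of oligodendrocyte precursors, which make versican, were 277 to 291 CPM in cKO and 252 to 285 CPM in control cords at 4 weeks, ranges that overlap. At 4.5 weeks they were 678 to 762 CPM in cKO and 320 to 333 CPM in control cords. Of the 5 markers, 2 rose, 1 fell (Ptprz1) and 2 were not called at 4 weeks, and 4 rose and Ptprz1 was not called at 4.5 weeks. The part of these cells in the Vcan values was not tested. Bcan, brevican, a substrate of Adamts4, fell at both times (-1.17 ± 0.13, adjusted p = 2.3e-05, and -0.83 ± 0.13, adjusted p = 7.8e-05). Of the link proteins, which fasten proteoglycans to hyaluronan, Hapln2 and Hapln4 fell at both times: Hapln2, of the nodes of Ranvier, with -1.45 ± 0.11 (adjusted p = 1.8e-06) and -1.45 ± 0.12 (adjusted p = 2.2e-07), and Hapln4, of perineuronal nets, with -0.33 ± 0.093 (adjusted p = 0.015) and -2.15 ± 0.094 (adjusted p = 1.7e-09, edgeR). Hapln3 rose at both times (0.72, adjusted p = 0.0073, and 1.10, adjusted p = 0.00011), and Hapln1 was not called at 4 weeks (-0.46, adjusted p = 0.085) and fell at 4.5 weeks (-2.12, adjusted p = 1.3e-06).

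**Figure D4:**
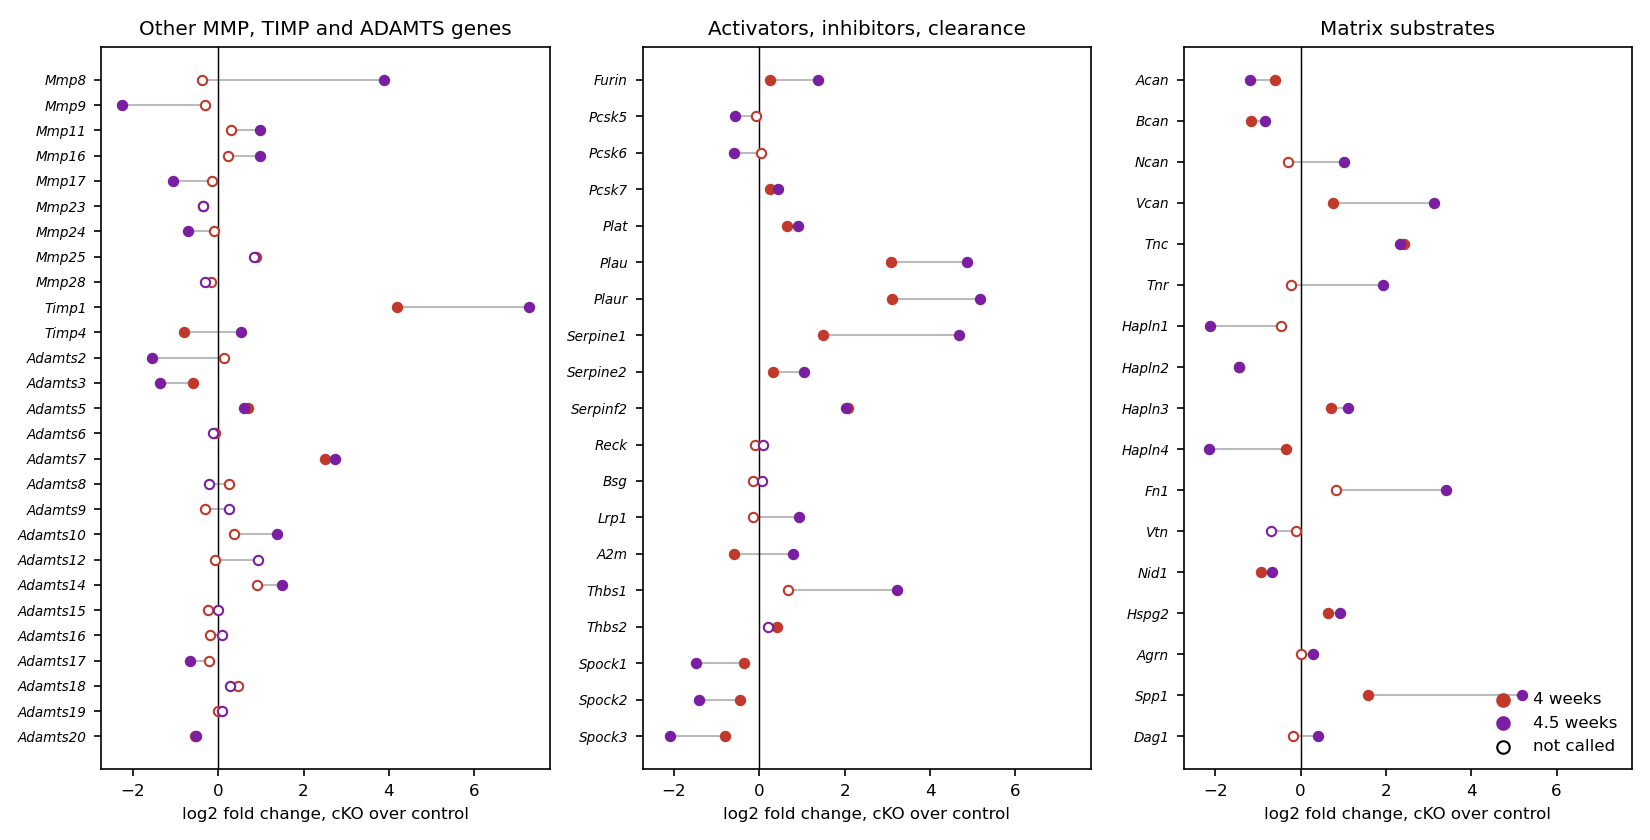
Log2 fold change of cKO over control at 4 and 4.5 weeks for tested genes of the wider MMP, TIMP and ADAMTS families (without Mmp27), of the activators, inhibitors and clearance receptors, and of the matrix substrates, each pair of times joined by a line, with open circles for genes not called (Mmp8 and Serpinf2 are shown for their values only). Timp1 stands highest at both times (4.19 and 7.29). Mmp9 and Adamts2 were not called at 4 weeks (-0.31 and 0.13) and lie at -2.26 and -1.56 at 4.5 weeks.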

How the data were processed

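Poly(A) RNA of spinal cord was sequenced in 12 libraries, 3 per group. Per the submitters' processing notes, STAR, RSEM and the mouse build mm39 were used; versions and the gene annotation release are not given in the sources used here. The authors deposited, per the labels, 1 table of estimated counts (RSEM expected counts, not scaled) for each time, in which 3.25% to 3.81% of the values per library were not whole. These were rounded, 27 symbols that a spreadsheet had turned into dates were restored, and 6753 entries without a symbol kept their gene ID and stayed in the fit.

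Both tables were fitted together with edgeR 4.0.16 (R 4.3.3): filterByExpr (19278 genes kept), TMM scaling, and the quasi-likelihood F test with 1 mean per group, Benjamini-Hochberg adjusted over all genes tested, called below 0.05. CPM uses TMM-scaled library totals. The standard error is the Wald error of the fitted coefficient. With 3 against 3, an exact permutation test of 1 gene cannot go below p = 0.1. The alternatives, 23 in all, included DESeq2 1.42.0, limma-voom (limma 3.58.1), other scalings and filters, a sex term and each library left out. The procedure was tested on simulated counts.

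The library kit does not mark strand, so reads in exon sequence shared by genes on opposite strands cannot be told apart. Some genes are not reported here. Replicates are independent animals per the labels' protocols. Exon lengths and overlaps came from GENCODE M21, and promoters from RefSeq (GRCm38.p6). The 10 genes, the lists and the markers were chosen with earlier results of these data known. Genes were named by a rule: the 10 genes, the 2 called genes of smallest p per list and time, list exceptions in direction, and the 3 nearest profiles per gene. Mmp8, Mmp27, Serpinf2, Hapln1, Hapln3 and the named marker genes were named outside it, after their values were seen. Mmp3, Mmp12, Mmp8, Mmp27 and Serpinf2 reached the filter level in fewer than 3 control libraries.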

Additional observations from a re-analysis of the deposited data

Results flagged for a closer look

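For 6 of the genes the effect of the cKO differed between the times by the test of the difference itself (edgeR, effect at 4.5 weeks minus effect at 4 weeks, log2 scale, adjusted over all genes). It was 1.58 for Mmp14 (adjusted p = 0.00025), 1.25 for Mmp19 (adjusted p = 0.0032), 1.17 for Adamts1 (adjusted p = 0.016), 0.77 for Timp2 (adjusted p = 5.2e-05), 0.43 for Adamts4 (adjusted p = 0.04) and -0.88 for Mmp15 (adjusted p = 1.6e-05). Such differences were called for 40.7% of all tested genes. The times also differ in the sex of the animals, and cannot be told apart from it in the controls. With a sex term Adamts1 was no longer called (adjusted p = 0.07). Groups of 3 are too small for a test of single outlying libraries.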

How the results depend on the processing

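Over 23 alternatives, 831 of 894 values of the 10 genes kept their direction and their side of the threshold. The number of the 10 genes called higher at 4 weeks was 6, where 20.1% of all tested genes were called higher and 17.2% lower. It was 4 to 6 with a library left out, and 5 with a 1 CPM filter, limma-voom or the replicate block. It was 4 with each time fitted alone, a sex term or a test against 1.5-fold. These numbers and the 894 values include Mmp3 and Mmp12. Both had to differ to be tested, so their calls do not show that a result is stable. The number called lower at 4 weeks was 2 in place of 1 without a filter, with DESeq2, with the replicate block and with a sex term, and 1 to 2 with a library left out. The replicate numbers did not pair the animals (correlations of same-numbered libraries -0.165 to 0.205). With the replicate block, Timp3 was called lower at 4 weeks (-0.38, adjusted p = 0.045), while Adamts1 at 4 weeks (0.71, adjusted p = 0.062) and the Adamts4 difference between times (0.43, adjusted p = 0.053) were not called. Against a 1.5-fold change, 1 of the 10 genes was lower at 4.5 weeks and 2 had a larger effect at 4.5 weeks, and over all genes 1357 were higher and 328 lower at 4 weeks, 3520 and 2839 at 4.5 weeks, 1219 and 1090 in the difference, and 0 and 1 between controls. With a sex term 1914 genes were lower at 4 weeks, and 0 were higher and 0 lower between controls. Of the 10 genes, 1 was higher between controls without a filter, with a 1 CPM filter, with DESeq2 and with limma-voom, and 1 was lower with DESeq2 (0 to 1 each with a library left out). Over all genes, controls gave 791 to 2180 higher and 522 to 1888 lower with a library left out, and 298 and 92 without control libraries 1 and 2 of 4.5 weeks. Values that were not called changed sign as follows, and the cause was not tested. The Mmp12 difference between times was 0.69 with limma-voom, 0.15 with the block, 1.47 without control libraries 1 and 2, and -2.74 to 1.37 with a library left out. With a library left out, the Mmp2 difference was -0.10 to 0.45 and that of Timp3 -0.05 to 0.27. Between controls, Mmp19 was -0.37 to 0.14 and Adamts1 -0.10 to 0.21 with a library left out, Adamts1 was -0.10 without libraries 1 and 2 of 4.5 weeks, and Timp3 was -0.28 with a sex term. Depth limits Mmp3 and Mmp12, with 0 to 12 counts in each control library.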

Other observations

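Mmp13, a collagenase that did not pass the filter on low counts and was not tested, had 18, 146 and 7 counts in cKO cords at 4.5 weeks, against 6, 10 and 1 counts in controls. The high value came from cKO library 2. It had 3, 5 and 5 counts in cKO cords at 4 weeks, against 4, 2 and 3 counts in controls. Mmp27 had 0 counts in all 6 libraries at 4 weeks. Both genes were picked after their values were seen.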
